A study of Mus musculus with 8 samples.

Results

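The 35 genes described here encode enzymes that build cholesterol and fatty acids, regulators that control those enzymes, and proteins that carry or export cholesterol. They were chosen by name, with no measured value in the rule, but with earlier results of these data known. All 35 were present in the count table of 13937 genes and among the 13509 genes tested. By role they fall into 7 genes of the mevalonate pathway, 11 that act from squalene to cholesterol, 5 that control sterol levels, 9 of fatty acid synthesis and 3 of cholesterol transport and efflux. RNA was sequenced from primary astrocytes purified, after removal of the meninges, from the brains of C57BL/6 pups on post natal day 1, either wild type (WT) or RGC-32 knock-out (KO), the latter lacking Response Gene to Complement 32, whose gene is RGCC. Cultures of both genotypes were grown with serum, then starved of serum overnight, and were left unstimulated (control) or exposed for 24 h to TGF-β at 10 ng/ml, with 2 libraries in each of the 4 groups. The libraries of a group are described as biological replicates, and whether they came from separate litters, and whether a control and a TGF-β library shared a culture, is not given in the sources used here. The comparisons ask how these genes respond to TGF-β and whether the response differs when RGC-32 is missing.

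Cholesterol is built from acetyl-CoA through mevalonate and isoprenoids to squalene, which is closed into lanosterol and then trimmed to cholesterol in the endoplasmic reticulum. Genes of this pathway are known targets of SREBP2 and those of fatty acid synthesis of SREBP1, transcription factors that SCAP escorts to the Golgi when membrane sterols are low and that INSIG proteins hold back when sterols are high. Astrocytes are a main source of cholesterol in the brain, where plasma lipoproteins do not enter, and they release it on particles of apolipoprotein E.

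Genes are called past the threshold at a log2 fold change of 0.6 or more in size with an adjusted p under 0.05. Promoters are shown for the genes past it in both genotypes that have 1 promoter in the table used (IDI1, CYP51 and EBP). HMGCS1 is added as the only member whose promoter matched the sterol element described next. FASN was chosen after its values were seen, and did not differ between genotypes at an adjusted p under 0.05. Each promoter runs 5′ to 3′ from 250 bases before to 50 after the RefSeq start on GRCm38, the build called mm10 in the submitters' notes. Capitals mark CCAAT or its reverse complement ATTGG, bound by NF-Y, a common partner of SREBP. In HMGCS1 they also mark TCACCCCAC, a match to TCACNCCAC, the core of the sterol regulatory element.
HMGCS1 (chr13:119690101-119690400, plus strand): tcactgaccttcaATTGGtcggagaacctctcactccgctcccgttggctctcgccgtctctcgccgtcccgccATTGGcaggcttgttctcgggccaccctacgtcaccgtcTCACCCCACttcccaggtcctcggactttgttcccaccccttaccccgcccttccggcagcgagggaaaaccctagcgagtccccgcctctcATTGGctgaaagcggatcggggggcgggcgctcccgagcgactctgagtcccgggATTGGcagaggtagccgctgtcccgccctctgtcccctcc
IDI1 (chr13:8885356-8885655, plus strand): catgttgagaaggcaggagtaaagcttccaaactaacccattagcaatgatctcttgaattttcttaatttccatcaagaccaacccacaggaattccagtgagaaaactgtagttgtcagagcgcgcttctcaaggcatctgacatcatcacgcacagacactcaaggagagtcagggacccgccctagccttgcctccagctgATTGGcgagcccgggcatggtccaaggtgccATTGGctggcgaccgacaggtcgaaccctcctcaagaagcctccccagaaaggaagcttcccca
CYP51 (chr5:4104648-4104947, minus strand): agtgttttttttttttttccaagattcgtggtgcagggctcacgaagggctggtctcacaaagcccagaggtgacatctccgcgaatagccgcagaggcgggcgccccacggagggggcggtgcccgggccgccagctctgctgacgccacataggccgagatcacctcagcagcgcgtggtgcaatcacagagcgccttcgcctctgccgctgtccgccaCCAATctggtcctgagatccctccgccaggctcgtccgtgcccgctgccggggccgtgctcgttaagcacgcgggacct
EBP (chrX:8193463-8193762, minus strand): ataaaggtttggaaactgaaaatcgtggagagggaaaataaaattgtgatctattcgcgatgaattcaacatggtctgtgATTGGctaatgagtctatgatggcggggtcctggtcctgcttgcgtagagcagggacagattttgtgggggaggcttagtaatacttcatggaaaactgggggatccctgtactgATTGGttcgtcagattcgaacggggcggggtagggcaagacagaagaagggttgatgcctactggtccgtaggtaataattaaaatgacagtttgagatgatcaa
FASN (chr11:120824498-120824797, minus strand): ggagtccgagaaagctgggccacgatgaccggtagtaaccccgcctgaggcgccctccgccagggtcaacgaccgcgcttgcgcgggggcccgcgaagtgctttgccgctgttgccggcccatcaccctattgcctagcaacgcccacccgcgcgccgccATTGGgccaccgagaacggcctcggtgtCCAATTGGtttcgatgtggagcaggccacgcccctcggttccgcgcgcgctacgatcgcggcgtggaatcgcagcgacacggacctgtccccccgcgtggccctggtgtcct

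The promoter of HMGCS1 held 4 CCAAT matches, FASN 3, IDI1 and EBP 2 each, and CYP51 1. Of the 35 members, 27 had a promoter in the table, and FDPS, FDFT1, SQLE, STARD4, SCD1, SCD2, FADS1 and ABCG1 had none. On either strand, CCAAT was found in 20 of the 27 members, and in 14 of the 15 sterol synthesis genes among them, against 41.1% of 27025 genes with promoters of the same length. GGGCGG, the GC box bound by SP1, was in 21 of the 27 members against 38.2% of all genes, and CACGTG, an E-box, in 7 against 8.09%. The sterol element core was in 1 member, HMGCS1, against 1.44% of genes, and its looser form TCACNCNAC, which contains the first, was in HMGCS1 and NSDHL against 3.15%. These are matches of letters within 300 bases and not binding sites, and they were not compared with the response to TGF-β.

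Library totals ran from 14920561 to 18956038 counts, with a median of 15857266, and the lowest count of any member in any library was 242. Within a group, libraries varied beyond counting error (chi-square per degree of freedom 6.26 to 10.4 over all genes). RGCC itself had at least 80 counts in every WT library and at most 64 in every KO library, and was at 0 in none. All 8 astrocyte markers were present, and their summed level was 4070 to 4250 CPM in WT control and 3210 to 3330 in WT TGF-β, and 4710 to 5390 and 3990 to 4260 in KO. CPM is the count of a gene relative to its library's TMM-adjusted total. Over the 6 meningeal fibroblast markers the sum was 4080 to 5260 CPM in WT control and 8760 to 9870 in WT TGF-β. In KO it was 3320 to 3520 and 6470 to 6600. Past the threshold 3 of 6 rose in each genotype (COL1A1, COL1A2 and PDGFRB, of which the collagens are also known targets of TGF-β). Of all genes 7.72% rose past it in WT and 6.61% in KO. Downward 1 of 6 passed in WT and 0 in KO, where 5.65% and 4.93% of all genes did. DCN went from 306 and 332 CPM to 214 and 202 in WT, and from 280 and 263 to 232 and 193 in KO. LUM was low, at 2.75 to 5.07 CPM. The 8 microglial markers summed to 799 to 950 CPM in WT control and 687 to 932 in WT TGF-β, and to 863 to 931 and 703 to 799 in KO. For 7 of 8 oligodendrocyte lineage markers the sums were lower after TGF-β, at 188 to 209 and 140 to 145 CPM in WT and 207 to 246 and 159 to 168 in KO, as they were for 3 of 4 endothelial markers, at 86.2 to 106 and 50.1 to 55.1 in WT and 87.3 to 112 and 52.8 to 62.8 in KO. Sums of 4 of 6 neuronal markers were higher, at 304 to 315 and 377 to 395 CPM in WT and 278 to 336 and 353 to 384 in KO, and MOG, RBFOX3, SNAP25 and CLDN5 were outside the count table. Their part in the results was not tested, and in bulk RNA fewer cells of a type and less RNA per cell cannot be told apart.

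Most of these genes were modestly higher after TGF-β in both genotypes. The log2 fold change was above 0 for 31 of 35 members in WT and for 33 in KO, with medians of 0.41 and 0.35 against -0.005 and 0.003 over all genes tested. Without a size limit, 21 members rose at an adjusted p under 0.05 in WT, where 18.6% of all genes did, and 19 in KO, where 16.6% did, and 16 rose in both. APOE was the one that fell, in both genotypes, where 14.3% and 11.8% of all genes fell. Past the threshold, 9 members rose in WT, where 7.72% of all genes did, and 6 in KO, where 6.61% did. IDI1, FDPS, CYP51, EBP and SREBF1 passed in both genotypes, MVD, LSS, ACACA and FASN in WT, and NSDHL in KO. No member fell past it in either genotype with edgeR or with DESeq2, where 5.65% and 4.93% of all genes did, and at an unadjusted p under 0.05 APOE alone had fallen with either tool.

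**Figure D1:**
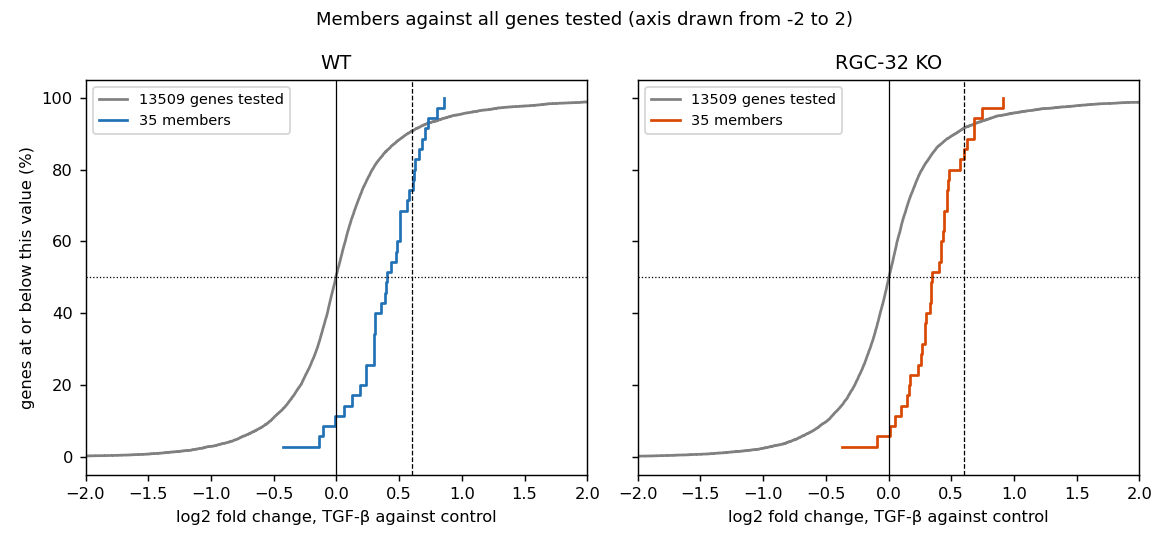
Cumulative share of genes (%) by log2 fold change after TGF-β, for the 35 members (coloured) and the 13509 genes tested (grey), in WT (left) and KO (right); the dashed line marks 0.6 and the dotted line the median. The members' curves sit to the right of the grey curves over most of the range, with medians of 0.41 and 0.35, while few members lie past the dashed line.

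In both TGF-β libraries 28 of 35 members were above both control libraries in WT and 30 in KO, where this held for 35.4% and 34.3% of all genes. All 35 members together took 0.991% to 1.10% of raw counts in the 4 control libraries and 0.944% to 1.09% in the 4 TGF-β libraries, ranges that overlapped. APOE, which fell, and SCD2 are the most abundant members by count, and without both, a choice made after their values were seen, the shares were 0.346% to 0.377% and 0.401% to 0.438%. With upper quartile scaling the share of upward calls among all genes past the threshold was 44.8% for WT, down from 57.8%, and 45.5% for KO, down from 57.3%, members above 0 numbered 30 and 31, and those past the threshold 4 and 3. In WT, 3 members passed the threshold when control replicate 2 was left out, 14 without TGF-β replicate 1 and 6 without TGF-β replicate 2, while in KO 2 passed without TGF-β replicate 2. The counts at an adjusted p under 0.05 of any size fell to 10 in WT without control replicate 2 or TGF-β replicate 2, and in KO to 12, 10 and 4 without control replicate 1, control replicate 2 and TGF-β replicate 2. With Bonferroni's correction in edgeR 0 members passed the threshold, and on the FPKM scale with a pseudocount of 1 a single member did in each genotype.

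**Figure D2:**
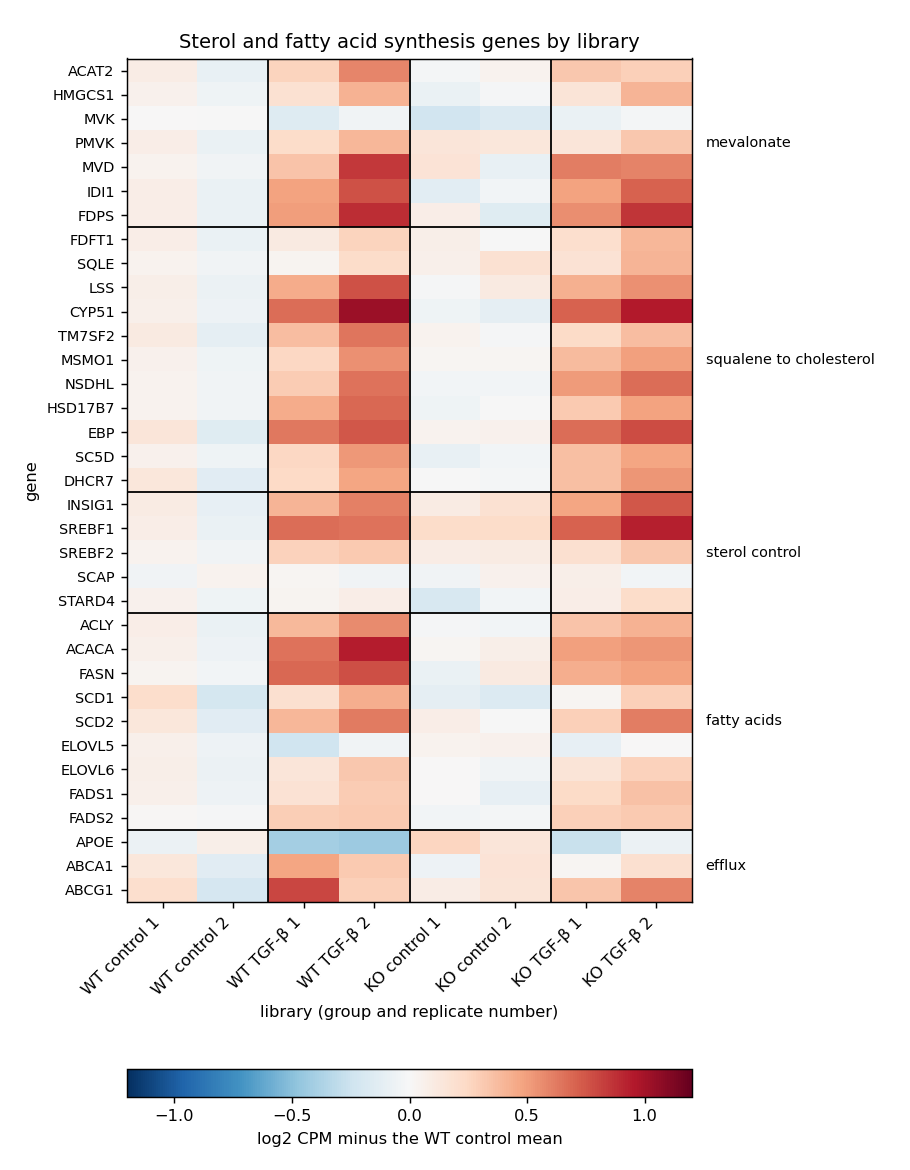
Log2 CPM of each member (rows, grouped by role) in each of the 8 libraries (columns), minus the mean of the WT control libraries; red is higher and blue lower. Both pairs of TGF-β columns are red over most of the sterol and fatty acid rows, deeper in replicate 2, whereas APOE is blue in WT TGF-β, and MVK, SCAP and ELOVL5 stay pale.

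In the mevalonate pathway, which makes isoprenoid units from acetyl-CoA, 3 of 7 genes rose past the threshold in WT and 2 in KO, and 4 in each had an adjusted p under 0.05. Over all genes 7.72% (WT) and 6.61% (KO) rose past the threshold, and 18.6% and 16.6% rose at that adjusted p. FDPS, which makes farnesyl diphosphate, the branch point between sterols and other isoprenoids, had 49.3 and 44.0 CPM in unstimulated WT cells, 65.9 and 86.3 in stimulated WT, 49.1 and 42.2 in unstimulated KO and 68.8 and 84.5 in stimulated KO. All TGF-β libraries were above all control libraries. As log2 fold change ± SE, the response was 0.70 ± 0.15 (adjusted p = 0.0104) for WT and 0.75 ± 0.15 (adjusted p = 0.00975) for KO. IDI1, which interconverts the isoprenoid building blocks, had 20.3 and 18.1 CPM in unstimulated WT cells, 26.9 and 32.7 in stimulated WT, 17.6 and 18.8 in unstimulated KO and 26.8 and 31.5 in stimulated KO. Again the groups did not overlap, and the change was 0.63 ± 0.12 (adjusted p = 0.00739) for WT and 0.68 ± 0.13 (adjusted p = 0.00682) for KO. MVD makes isopentenyl diphosphate and had 15.8 and 14.9 CPM in unstimulated WT cells, 19.5 and 27.6 in stimulated WT, 17.2 and 14.4 in unstimulated KO and 23.6 and 23.2 in stimulated KO, a rise of 0.62 ± 0.16 (adjusted p = 0.0238) for WT and 0.57 ± 0.16 (adjusted p = 0.0363) for KO. Replicate 2 of WT TGF-β was the highest of the 8 libraries for MVD, IDI1 and FDPS.

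Upstream in the pathway the values were smaller. HMGCS1, which condenses acetyl units to HMG-CoA, had 0.30 ± 0.10 (adjusted p = 0.0586) for WT and 0.34 ± 0.11 (adjusted p = 0.046) for KO, and ACAT2, which makes acetoacetyl-CoA, 0.44 ± 0.11 (adjusted p = 0.0221) for WT and 0.30 ± 0.11 (adjusted p = 0.0886) for KO. For MVK, which phosphorylates mevalonate, the values were -0.10 ± 0.08 (adjusted p = 0.34) for WT and 0.15 ± 0.08 (adjusted p = 0.193) for KO, and for PMVK, the next kinase, 0.31 ± 0.11 (adjusted p = 0.0571) for WT and 0.10 ± 0.11 (adjusted p = 0.523) for KO. MVK passed in neither genotype, its values differed in sign, and the one in KO turned to -0.13 on the FPKM scale. The calls of MVD, IDI1 and FDPS in WT were lost without WT control replicate 2 (adjusted p = 0.103, 0.0469 with a log2 fold change of 0.55, and 0.0598) and without WT TGF-β replicate 2 (0.136, 0.0631 and 0.0735), and that of MVD also without WT control replicate 1 (0.0595). In KO, IDI1 and FDPS lost theirs without KO TGF-β replicate 2 (0.0629 and 0.0743), and FDPS without KO control replicate 2 (0.0665).

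Between squalene and cholesterol all 11 genes had a log2 fold change above 0 in both genotypes, 8 in each had an adjusted p under 0.05, and 3 in each rose past the threshold. Among all genes the shares that rose were 18.6% (WT) and 16.6% (KO) at that adjusted p, and 7.72% and 6.61% past the threshold. CYP51, the lanosterol 14-alpha-demethylase that starts the trimming of lanosterol, changed most of the 35 members. It had 93.1 and 85.6 CPM in unstimulated WT cells, 143 and 182 in stimulated WT, 86.3 and 82.6 in unstimulated KO and 146 and 173 in stimulated KO. Its TGF-β libraries lay well above its controls in each genotype, with changes of 0.86 ± 0.12 (adjusted p = 0.00203) for WT and 0.91 ± 0.13 (adjusted p = 0.00197) for KO, and it stayed past the threshold with each library left out in turn and on the FPKM scale. EBP, the isomerase that shifts the sterol double bond, had 23.3 and 19.04 CPM in unstimulated WT cells, 32.6 and 35.3 in stimulated WT, 21.7 and 21.8 in unstimulated KO and 33.5 and 36.3 in stimulated KO. The groups did not overlap and the changes were nearly equal, 0.68 ± 0.10 (adjusted p = 0.0024) for WT and 0.68 ± 0.10 (adjusted p = 0.00296) for KO. NSDHL, which removes the C4 carboxyl group during demethylation, had 28.6 and 27.2 CPM in unstimulated WT cells, 34.5 and 43.8 in stimulated WT, 27.2 and 27.2 in unstimulated KO and 39.7 and 44.4 in stimulated KO, and changed by 0.49 ± 0.12 (adjusted p = 0.0154) for WT and 0.63 ± 0.12 (adjusted p = 0.00665) for KO. LSS, which closes squalene epoxide into lanosterol, had 28.6 and 25.8 CPM in unstimulated WT cells, 37.0 and 46.2 in stimulated WT, 26.9 and 29.3 in unstimulated KO and 36.6 and 39.9 in stimulated KO, and changed by 0.61 ± 0.12 (adjusted p = 0.00622) for WT and 0.44 ± 0.12 (adjusted p = 0.026) for KO.

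The other 7 enzymes of the branch were short of the threshold in both genotypes. MSMO1, the C4 methyl oxidase, changed by 0.41 ± 0.10 (adjusted p = 0.0165) for WT and 0.41 ± 0.10 (adjusted p = 0.0171) for KO. HSD17B7, the 3-keto reductase, came close to the fold limit in WT at 0.58 ± 0.10 (adjusted p = 0.0037), with 0.43 ± 0.10 (adjusted p = 0.014) in KO. SC5D, which adds the C5 double bond, rose in both by 0.39 and 0.48 (adjusted p = 0.0159 and 0.00868). DHCR7, the last reductase of the pathway through 7-dehydrocholesterol, had 0.35 ± 0.12 (adjusted p = 0.0526) for WT and 0.47 ± 0.12 (adjusted p = 0.0223) for KO, and TM7SF2, a sterol C14 reductase, 0.51 ± 0.12 (adjusted p = 0.0166) for WT and 0.29 ± 0.12 (adjusted p = 0.123) for KO. The entry enzymes of the branch had the smallest values. FDFT1, squalene synthase, had 0.19 ± 0.09 (adjusted p = 0.161) for WT and 0.27 ± 0.09 (adjusted p = 0.0634) for KO, and SQLE, squalene epoxidase, 0.13 ± 0.10 (adjusted p = 0.344) for WT and 0.17 ± 0.10 (adjusted p = 0.212) for KO. Without WT control replicate 2 the calls of LSS and EBP in WT fell under the fold limit (log2 fold change 0.54 for each), as did LSS without WT TGF-β replicate 2 (0.42), and NSDHL in KO was lost without KO TGF-β replicate 2 (adjusted p = 0.0617).

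**Figure D3:**
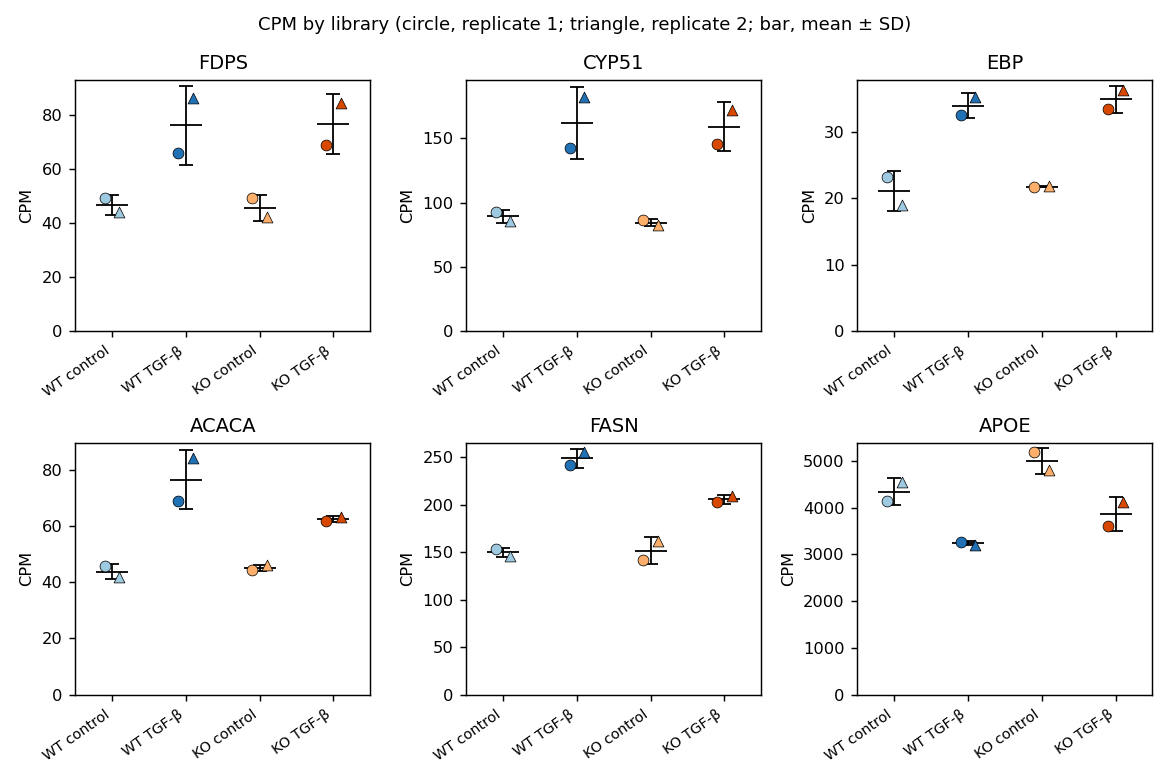
CPM of 6 members in each library, with replicate 1 as circles and replicate 2 as triangles, and the mean ± SD of the 2 libraries of a group as bars; each axis starts at 0. FDPS, CYP51 and EBP reach like levels after TGF-β in both genotypes, ACACA and FASN reach 69.0 to 84.1 and 242 to 256 CPM in WT against 61.6 to 63.4 and 203 to 209 in KO, and APOE is lower after TGF-β.

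Among the 5 genes that control sterol levels, SREBF1, the gene of SREBP1, passed the threshold in both genotypes. SREBF1 had 178 and 159 CPM in unstimulated WT cells, 268 and 264 in stimulated WT, 196 and 196 in unstimulated KO and 274 and 321 in stimulated KO. Every TGF-β library was above every control library of its genotype, with 0.66 ± 0.09 (adjusted p = 0.00137) for WT and 0.60 ± 0.09 (adjusted p = 0.00242) for KO. Its value in KO lay just past the fold limit and fell under it with RLE scaling or DESeq2 (0.595 in each) and without WT TGF-β replicate 1 or 2 (0.59), and more clearly without KO TGF-β replicate 2 (0.46). The WT call was lost without WT control replicate 2 (0.58). INSIG1, which retains SCAP in the endoplasmic reticulum and is itself a known SREBP target, had 70.8 and 62.0 CPM in unstimulated WT cells, 87.7 and 101 in stimulated WT, 70.8 and 75.3 in unstimulated KO and 92.1 and 111 in stimulated KO, and rose by 0.50 ± 0.11 (adjusted p = 0.0119) for WT and 0.48 ± 0.11 (adjusted p = 0.0167) for KO. SREBF2, the gene of SREBP2, had 0.30 ± 0.06 (adjusted p = 0.00933) for WT and 0.16 ± 0.06 (adjusted p = 0.0863) for KO. SCAP stayed between 187 and 203 CPM in all 8 libraries, with -0.01 ± 0.07 (adjusted p = 0.905) for WT and 0.02 ± 0.07 (adjusted p = 0.883) for KO. STARD4, a carrier of cholesterol within the cell, had 0.06 ± 0.08 (adjusted p = 0.637) for WT and 0.26 ± 0.09 (adjusted p = 0.0541) for KO.

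Of the 9 fatty acid genes, 5 in each genotype rose at an adjusted p under 0.05, and 2, ACACA and FASN, rose past the threshold in WT and 0 in KO. The shares of all genes were 18.6% (WT) and 16.6% (KO) at that adjusted p, and 7.72% and 6.61% past the threshold. Neither ACACA nor FASN differed in response between genotypes at an adjusted p under 0.05, as given below. ACACA, acetyl-CoA carboxylase, which makes malonyl-CoA, had 45.6 and 42.0 CPM in unstimulated WT cells, 69.0 and 84.1 in stimulated WT, 44.3 and 45.9 in unstimulated KO and 61.6 and 63.4 in stimulated KO. TGF-β changed it by 0.81 ± 0.10 (adjusted p = 0.00091) for WT and 0.47 ± 0.10 (adjusted p = 0.0102) for KO. FASN, fatty acid synthase, which builds palmitate from it, had 154 and 146 CPM in unstimulated WT cells, 242 and 256 in stimulated WT, 142 and 162 in unstimulated KO and 203 and 209 in stimulated KO. Both groups of TGF-β libraries were above their controls, by 0.73 ± 0.07 (adjusted p = 0.000499) for WT and 0.44 ± 0.07 (adjusted p = 0.00462) for KO. Both WT calls held without each WT library in turn. On the FPKM scale with a pseudocount of 1 both fell under the fold limit, at 0.54 for ACACA and 0.53 for FASN. With a pseudocount of 0.1 FASN did so too (0.57). ACLY, which supplies cytosolic acetyl-CoA from citrate, had 174 and 156 CPM in unstimulated WT cells, 216 and 244 in stimulated WT, 164 and 161 in unstimulated KO and 209 and 220.0 in stimulated KO, and rose by 0.48 ± 0.08 (adjusted p = 0.00366) for WT and 0.40 ± 0.08 (adjusted p = 0.00855) for KO.

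The desaturases and elongases, which modify the finished chains, were all short of the threshold. SCD2, the main stearoyl-CoA desaturase of brain, had 1930.5 and 1602 CPM in unstimulated WT cells, 2316 and 2701 in stimulated WT, 1863 and 1753 in unstimulated KO and 2148 and 2683 in stimulated KO, with 0.51 ± 0.14 (adjusted p = 0.028) for WT and 0.42 ± 0.14 (adjusted p = 0.0593) for KO. Its paralogue SCD1 had 0.30 ± 0.15 (adjusted p = 0.159) for WT and 0.29 ± 0.15 (adjusted p = 0.181) for KO, and how reads that match both copies were counted is not given in the sources used here. FADS2, the delta-6 desaturase, rose by 0.31 ± 0.05 (adjusted p = 0.00439) for WT and 0.33 ± 0.05 (adjusted p = 0.00403) for KO, and FADS1, the delta-5 desaturase, had 0.24 ± 0.08 (adjusted p = 0.0576) for WT and 0.34 ± 0.08 (adjusted p = 0.0191) for KO. ELOVL6, which extends palmitate, had 0.24 ± 0.09 (adjusted p = 0.0858) for WT and 0.24 ± 0.09 (adjusted p = 0.0987) for KO. ELOVL5, which extends polyunsaturated chains, was the only fatty acid gene below 0, at -0.14 ± 0.08 (adjusted p = 0.217) for WT and -0.09 ± 0.08 (adjusted p = 0.43) for KO.

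**Figure D4:**
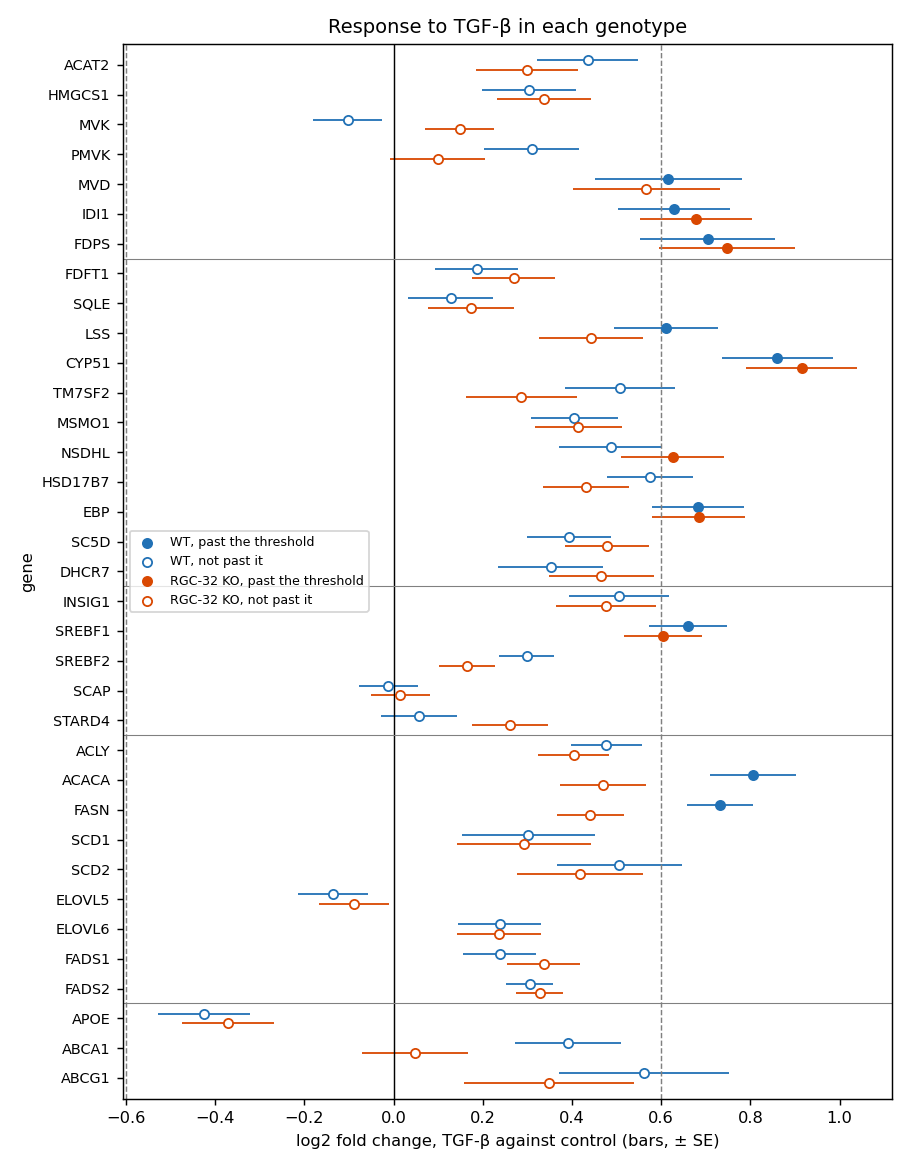
Log2 fold change after TGF-β (± SE) of each member in WT (blue) and KO (orange), grouped by role, with filled points past the threshold; dashed lines mark 0.6 and -0.6. CYP51 lies furthest right in both genotypes (0.86 and 0.91), ACACA and FASN are filled in WT only, and APOE alone lies clearly left of 0.

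The 3 transport genes differed in direction. APOE, the apolipoprotein of the particles that carry cholesterol out of astrocytes, had 4146 and 4542 CPM in unstimulated WT cells and 3264 and 3205 in stimulated WT. In KO, APOE had 5195 and 4804 CPM in unstimulated and 3609 and 4120.1 in stimulated cells. It was lower in each TGF-β library than in each control library of its genotype, with -0.43 ± 0.10 (adjusted p = 0.0163) for WT and -0.37 ± 0.10 (adjusted p = 0.0304) for KO, short of the fold limit. Of the 8 astrocyte markers, AQP4, SLC1A3, SLC1A2, ALDH1L1 and SOX9 were also lower in each TGF-β library than in each control of their genotype, and GFAP was in WT, whereas GJA1 was higher in both genotypes and S100B overlapped. Their part in this was not tested. ABCA1, which loads cholesterol onto apolipoproteins, had 489 and 407 CPM in unstimulated WT cells, 619 and 555 in stimulated WT, 429 and 500.0 in unstimulated KO and 453 and 508 in stimulated KO. The WT groups were apart, at 0.39 ± 0.12 (adjusted p = 0.0383), and the KO groups overlapped, at 0.05 ± 0.12 (adjusted p = 0.786). ABCG1, a second exporter, had 0.56 ± 0.19 (adjusted p = 0.0546) for WT and 0.35 ± 0.19 (adjusted p = 0.207) for KO, and WT TGF-β replicate 1 held 47.0 CPM against 32.7 in replicate 2. With 1 library left out, the adjusted p of APOE reached 0.0925 in WT (without control replicate 2) and 0.173 in KO (without TGF-β replicate 1), and that of ABCA1 in WT 0.192 (without control replicate 2).

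The difference between the genotypes' responses was tested as an interaction over all 8 libraries. No member passed an adjusted p under 0.05 with edgeR or with DESeq2, as none of the 13509 genes did (0% called, smallest adjusted p = 1 in edgeR), and 2 members had an unadjusted p under 0.05 with either tool, where 2.82% of all genes did with edgeR. The 2 in edgeR were FASN and ACACA. FASN rose by 0.29 more in WT than in KO on the log2 scale (SE 0.11, unadjusted p = 0.0248), and ACACA by 0.34 more (SE 0.14, unadjusted p = 0.0394). ABCA1 differed by 0.34 (SE 0.17, unadjusted p = 0.0762). Of the 18 sterol synthesis genes, none had an unadjusted interaction p under 0.05, and for CYP51 and EBP the differences were -0.05 (SE 0.18) and -0.001 (SE 0.15). A difference of the size seen for FASN lies within 2 SE of both.

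Nor did any member differ between WT and KO past the threshold, with edgeR or DESeq2, in the control state (0.037% of all genes with edgeR) or after TGF-β (0.0444%). At an unadjusted p under 0.05 there were 2 members in the control state, MVK and SREBF1, where 6.84% of genes passed, and 4 after TGF-β, FASN, ACACA, APOE and ABCA1, where 11.7% did. After TGF-β, FASN was higher in WT than in KO by 0.27 (SE 0.07, unadjusted p = 0.00626, adjusted p = 0.239) and ACACA by 0.29 (SE 0.09, unadjusted p = 0.0155, adjusted p = 0.308), and in both genes the WT and KO libraries did not overlap. APOE was lower in WT by 0.26 (SE 0.10, adjusted p = 0.391) and ABCA1 higher by 0.29 (SE 0.12, adjusted p = 0.403). In the control state MVK was higher in WT by 0.20 (adjusted p = 0.691) and SREBF1 lower by 0.22 (adjusted p = 0.7002). These comparisons and the responses to TGF-β share libraries and are not independent of each other.

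Replicates of a group differed in step across these genes. In WT TGF-β all 18 sterol synthesis genes were higher in replicate 2 than in replicate 1, by a median of 0.27 on the log2 scale, and in WT control 0 of 18 were, with a median of -0.13. In KO TGF-β replicate 2 was the higher for 16 of 18 (median 0.16) and in KO control for 10 of 18 (0.004). The 9 fatty acid genes behaved alike, with 9 of 9 higher in replicate 2 of both TGF-β groups and 0 of 9 in WT control. Over all genes tested this share was between 49.9% and 51.4%. The members thus deviated together between replicates, and the median over the 11 genes from squalene to cholesterol was 0.31 in WT TGF-β replicate 1 and 0.64 in replicate 2 above the WT control mean, and 0.36 and 0.49 in the KO TGF-β libraries.

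Levels of different genes were compared only per transcript length, in the deposited FPKM values (fragments relative to transcript length and depth). In WT control APOE stood far above the rest at 3521 ± 248 FPKM (SD, n = 2), followed by SCD2 at 322 ± 32.8 and FADS2 at 129 ± 0.119. FADS1 (73.1 ± 2.72) and HMGCS1 (72.7 ± 0.653) did not differ beyond their spread, and MSMO1 (56.2 ± 1.84) and SQLE (50.6 ± 0.633) came next. At the low end were ACACA at 4.23 ± 0.163, ABCG1 at 3.75 ± 0.589, ELOVL6 at 3.45 ± 0.013 and LSS at 3.31 ± 0.135 FPKM. After TGF-β, in WT, APOE was at 2460.1 ± 42.4 and SCD2 at 416 ± 23.7, and CYP51 went from 17.5 ± 1.10 to 29.3 ± 3.38.

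The libraries carry no strand, so reads from overlapping genes cannot be told apart, and in GENCODE M21 11 of the 35 members share exonic bases with another gene. FDFT1 shares 18.3% of its exonic bases with CTSB and CYP51 3.76% with AKAP9, both on the opposite strand, and TM7SF2 shares 12.1% with VPS51 on its own strand. For FDPS, 26.7% lie within a second annotated gene on the same strand, Gm43738. SREBF1 shares 1.93% with RAI1 and LSS 3.53% with an antisense transcript.

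Another 47 tested genes of lipid metabolism, listed beside the members, had a pooled median change of -0.002 (WT) and 0.09 (KO) on the log2 scale. The lists within them differed. Medians were 0.11 (WT) and 0.20 (KO) for 8 further sterol genes, with 6 and 7 above 0. For 19 further fatty acid genes they were 0.14 and 0.18, with 11 and 12 above 0. For 20 genes of lipid uptake, storage and turnover they were -0.08 and -0.12, with 6 and 8 above 0. Of the 47 genes 6 rose and 5 fell past the threshold in WT, where 7.72% and 5.65% of all genes did. In KO 3 rose and 4 fell, where 6.61% and 4.93% of all genes did. The same shares of all genes stand beside the counts of the separate lists below. THRSP, tied to lipogenesis and 1 of 19 further fatty acid genes, fell, with -0.78 ± 0.22 (adjusted p = 0.0275) for WT and -0.91 ± 0.20 (adjusted p = 0.0134) for KO, from a low level of 2.92 to 5.27 CPM in the controls. THRSP lost its call with DESeq2 (adjusted p = 0.162 in WT and 0.0858 in KO), in WT without control replicate 1 (0.121) or TGF-β replicate 1 (0.14) or 2 (0.0693), and in KO without control replicate 2 (0.0752) or TGF-β replicate 1 (0.0751) or 2 (0.0736). Among the 20 genes of lipid uptake, storage and turnover, 3 rose and 3 fell past the threshold in WT and 2 and 3 in KO. Those that fell in both were LPL, lipoprotein lipase, with -1.52 ± 0.31 (adjusted p = 0.00772) for WT and -1.44 ± 0.30 (adjusted p = 0.0112) for KO, CYP46A1, which makes 24-hydroxycholesterol, with -1.003 ± 0.13 (adjusted p = 0.00126) for WT and -1.203 ± 0.13 (adjusted p = 0.00075) for KO, and LCAT, which esterifies cholesterol on lipoproteins, with -1.09 ± 0.17 (adjusted p = 0.00303) for WT and -0.995 ± 0.18 (adjusted p = 0.00579) for KO. For LPL the WT control libraries stood apart, at 176 and 95.7 CPM against 47.1 and 47.6 after TGF-β, and its KO call was lost without control replicate 2 (adjusted p = 0.0684) or TGF-β replicate 1 (0.0726).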

How the data were processed

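RNA from primary mouse astrocytes was sequenced in 8 unstranded libraries, 2 in each of 4 groups taken from the labels. The authors ran STAR through the VIPER pipeline. They deposited raw counts (whole reads, 13937 genes by symbol) and FPKM values of 18644 genes. The submitters' notes name STAR, Cufflinks, DESeq and mm10, and no tool version or counting program is given in the sources used here. The authors' tables of fold changes and p-values per genotype were not used.

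Counts were filtered with filterByExpr (13509 genes left), scaled by TMM and fitted in 1 edgeR (4.0.16, R 4.3.3) quasi-likelihood model of the 4 groups without a block. P-values are two-sided and Benjamini-Hochberg adjusted over the genes tested. With 2 libraries a group, they rest on a spread per gene that is shared by all 4 groups and moderated over the genes. They thus do not measure the spread of the compared groups alone, nor the spread between further cultures. SE derives from the test statistic. Heat map values used log2 CPM with a prior count of 2. The pipeline was tested on simulated data. At an adjusted p under 0.05, log2 changes of 0.5 were recovered in 45.5% of cases for the WT response and in 6.06% for the interaction. For log2 changes of 1 the values were 86% and 71%. The lack of an interaction call therefore does not show that the responses were alike. Alternatives were DESeq2 (1.42.0), RLE or upper quartile scaling, no filter, limma (3.58.1) on log2(FPKM + 1) or log2(FPKM + 0.1) for genes with at least 0.5 FPKM in 2 libraries or unfiltered, Bonferroni's correction, no fold threshold, each library left out, and the replicate number as a block. Deviations of same-numbered libraries from their group means correlated at r = 0.49 between the control groups and 0.25 between the TGF-β groups of both genotypes, but at -0.34 (WT) and -0.35 (KO) between control and TGF-β, and at -0.48 and -0.51 across both. Since not every pair was positive and no source says what the number marks, it was not used to pair libraries.

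The members, the other pathway genes, the marker lists and the motifs were chosen with earlier results of these data known. Every member was named, and of the other lists the genes past the threshold in both genotypes in the same direction, up to 4 a list by mean absolute change, of which 2 are not reported here. FASN's promoter and the share of counts without APOE and SCD2 were chosen after values were seen. Promoters came from RefSeq (GRCm38.p6), matched by symbol for 27 of 35 members, and exons from GENCODE M21 (GRCm38). Members had at least 242 counts in every library, and over all genes the spread between replicates exceeded counting error.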

Additional observations from a re-analysis of the deposited data

How the results depend on the processing

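The rise of the members as a body kept its direction under the alternatives run, with 29 to 33 of 35 above 0, while the count past the threshold depended on the fold limit. Members raised in WT numbered 9 in the result reported, and 4 with upper quartile scaling, 1 with FPKM and a pseudocount of 1, with or without a filter, 3 with a pseudocount of 0.1, 21 with no fold threshold and 0 with Bonferroni's correction. In KO the 6 became 3, 1, 1, 19 and 0 in the same order. Without a fold threshold 1 member was lowered in each genotype. Leaving out 1 library gave 3 to 14 raised members in WT (3 without WT control replicate 2, 14 without WT TGF-β replicate 1) and 2 to 7 in KO (2 without KO TGF-β replicate 2). Members raised at an adjusted p under 0.05 of any size fell to 10 without WT control replicate 2 or WT TGF-β replicate 2 in WT, and in KO to 12 and 10 without control replicate 1 and 2 and to 4 without TGF-β replicate 2. Calls kept in all 4 leave-one-out fits of their genotype were 3 of 9 in WT (CYP51, ACACA and FASN) and 2 of 6 in KO (CYP51 and EBP). A lone library was assumed to vary like the other groups. With the replicate block the counts were 9 and 6, and it changed no call of a member, while THRSP in WT lost its call (adjusted p = 0.0565). A crossed block (control replicate 1 with TGF-β replicate 2), added after the correlations of deviations were seen, gave 9 and 5 past the threshold. At an adjusted p under 0.05 of any size 29 members were up in WT, against 21 without it, and 26 against 19 in KO. HMGCS1, PMVK and FDFT1 in WT were among those gained. Calls past the threshold over all genes rose with this block too, from 1043 to 1167 up and from 763 to 938 down in WT. In KO they went from 893 to 1040 up and from 666 to 812 down. The share of all genes at an adjusted p under 0.05 of any size was not counted for this block, so the gain is not read as particular to the members. RLE scaling, DESeq2 and no filter gave 9, 9 and 9 in WT and 5, 5 and 6 in KO. FPKM moved the median of all genes to -0.11 (pseudocount 1) and -0.13 (0.1) in both genotypes, and the members' median there was 0.23 to 0.25. Upper quartile scaling moved it to -0.09 in WT and -0.08 in KO.

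Direction turned only for small changes that passed no threshold. On the FPKM scale (pseudocount 1, with or without the filter, and 0.1) MVK in KO was -0.13 and -0.14, PMVK in KO -0.017 and -0.018, SCAP in KO -0.099 and -0.10, STARD4 in WT -0.0086 and -0.010, and ABCA1 in KO -0.095 and -0.098. With upper quartile scaling SCAP in KO was -0.068, STARD4 in WT -0.028 and ABCA1 in KO -0.035. With 1 library left out PMVK in KO ran from -0.013 to 0.18, SCAP in WT from -0.058 to 0.035, SCAP in KO from -0.037 to 0.062, and ABCA1 in KO from -0.058 to 0.16. The cause was not tested. Over single genes and settings, 1330 values kept direction and call, 79 lost a call, 12 gained one and 24 turned. Each member had at least 242 counts in each library.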
